A study of Mus musculus with 7 samples.

Results

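The replication-dependent histone genes supply the H1, H2A, H2B, H3 and H4 proteins that package newly made DNA. They lie in clusters, are short and mostly without introns, and many of them come as near-identical copies. Their mRNAs end in a stem-loop in place of a poly(A) tail and are made chiefly in S phase, under NPAT at the histone locus body. H2A and H2B genes often stand head to head and share the DNA between them as a promoter. Tip60 is an acetyltransferase whose known substrates include histones H4 and H2A, p400 is the ATPase of the same complex and places H2A.Z, and Hdac6 is a class II deacetylase that is known mostly from the cytoplasm of differentiated cells and is found largely in the nucleus of ESCs.

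The genes were taken as all rows whose symbol begins with Hist1, Hist2, Hist3 or Hist4. They made 62 rows for 60 genes, out of 36733 rows in the Flag ChIP-seq data and 22704 rows with a RefSeq identifier in the p400 ChIP-seq data. Hist1h4m and Hist2h3c1 have 2 rows each. Of the 62 rows, 49 belong to the Hist1 cluster on chromosome 13, 9 to Hist2 on chromosome 3, 3 to Hist3 on chromosome 11 and 1 to Hist4 on chromosome 6. By class there were 6 rows for H1, 14 for H2A, 17 for H2B, 12 for H3 and 13 for H4. GENCODE placed a gene of the same symbol at 59 of the 62 rows.

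The data are 7 ChIP-seq libraries of E14 mouse embryonic stem cells (ESCs), grown in serum and LIF without feeder cells. Flag ChIP was done in Tip60-H3F ESCs after knockdown (KD) of GFP or of Hdac6, in Hdac6-H3F ESCs after KD of GFP or of Tip60, and in untagged ESCs, where it measures the background of the antibody. H3F is a histidine and Flag tag that was targeted to the C-terminus of the endogenous protein, so each tagged line is a derivative of E14. ChIP of endogenous p400 was done upon GFP KD and Hdac6 KD. Knockdown was by lentiviral shRNA, and the knockdown cells were taken 72 hr after infection. GFP KD is the control knockdown. For the untagged library the title names no knockdown and no time after infection is given. Comparisons with it may therefore differ in infection as well as in the tag. For the Hdac6 ChIP library titled Tip60 KD, the genotype field names Hdac6 KD instead, and the title was followed. Each condition has 1 library, so the tests below compare libraries and cannot tell a knockdown apart from a difference between cultures.

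The deposited signal is coverage scaled to the depth of the library (ppm) from −2000 to 2000 bp around each TSS, and its step size gives the number of reads behind it. The libraries were normalized to between about 9226700 (Hdac6, Tip60 KD) and 31375600 reads (p400, Hdac6 KD). The unit used here is reads within 500 bp of the listed TSS. All rows had a median of between 8 reads (Hdac6, Tip60 KD) and 20 reads (p400, GFP KD), so single genes rest on few reads.

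The p400 signal at the histone genes was lower upon Hdac6 KD, and 4 promoter regions of genes that passed the test for it show the promoter elements of these genes. They are printed 5′ to 3′ from the mm9 genome, with capitals for the elements found by a search of both strands. The elements are the octamer ATTTGCAT, bound by Oct1 in H2B promoters, the CCAAT box, bound by NF-Y, the letters GGTCCG of the H4 site II element, bound by HINFP, and the TATA box letters TATAAA. The letters GGTCCG were added to the search after some of these sequences had been seen. The first sequence is the whole region between the listed starts of Hist3h2bb (minus strand, TSS at chr11:58768014) and Hist3h2a (plus strand, TSS at chr11:58768187), at chr11:58768015-58768186 and read on the plus strand. The other 3 run from 180 to 61 bases before the listed start, upstream of the annotated gene body. None of the printed stretches holds a whole TATAAA. Hist1h4k and Hist1h2bb have a match within 200 bases before the listed start, but not wholly inside the stretch shown. Hist1h4k had the lowest p-value for p400, Hist1h2bb the lowest of the H2B genes in Hist1, and Hist4h4, shown as the histone row with the most p400 reads, had a smaller change than the others.

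Hist3h2bb/Hist3h2a: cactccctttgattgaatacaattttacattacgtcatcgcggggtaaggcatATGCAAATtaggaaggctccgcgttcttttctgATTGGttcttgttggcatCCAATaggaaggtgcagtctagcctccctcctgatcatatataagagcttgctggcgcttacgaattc
Hist1h2bb (chr13:23838423-23838542, plus strand): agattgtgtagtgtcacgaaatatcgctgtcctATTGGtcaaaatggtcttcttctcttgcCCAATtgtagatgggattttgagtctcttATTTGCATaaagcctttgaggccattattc
Hist1h4k (chr13:21842435-21842554, minus strand): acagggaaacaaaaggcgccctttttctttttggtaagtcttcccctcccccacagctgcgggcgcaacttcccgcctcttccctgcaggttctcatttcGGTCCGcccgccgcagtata
Hist4h4 (chr6:136752961-136753080, minus strand): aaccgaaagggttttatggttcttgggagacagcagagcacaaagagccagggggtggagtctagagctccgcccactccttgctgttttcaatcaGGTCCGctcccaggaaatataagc

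Within 200 bases before the listed start, GGTCCG was found at 12 of 13 H4 rows (92.3%) and at 6.09% of all rows. The octamer was found at 9 of 17 H2B rows (52.9%) and 5 of 14 H2A rows (35.7%), against 1.23% of all rows, and at 0 H1, H3 and H4 rows. CCAAT was found at all 6 H1, 14 H2A and 17 H2B rows, at 10 of 12 H3 rows and at 4 of 13 H4 rows, against 28.5% of all rows. TATAAA was found at 31 of the 62 rows (50%) and at 9.66% of all rows. Matches, of the same or of different elements on either strand, overlapped at 1 histone row. A match is a string of letters and was not tested as a binding site.

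Reads were shared between neighbouring genes. The windows of 25 of the 62 rows overlapped that of another histone row, and 12 head-to-head pairs, 10 of them of an H2A with an H2B gene, had starts a median of 281 bp and at most 613 bp apart. Coverage is listed in full in each row of a pair, so members of a pair are not separate measurements. The near-identical copies also limited the counts. Of the reads of 50 bases that could come from a window, a median of 35.6% (0 to 100%) matched the genome more than once with at most 1 mismatch. By the methods such reads were placed at a random match, and whether all of them are in the deposited signal is not known. At histone gene positions where under 10% of possible reads were repeated, p400 upon GFP KD had 9.16 covering reads on average (336 positions), and where over 90% were repeated it had 0.784 (97 positions of 5 rows).

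**Figure D1:**
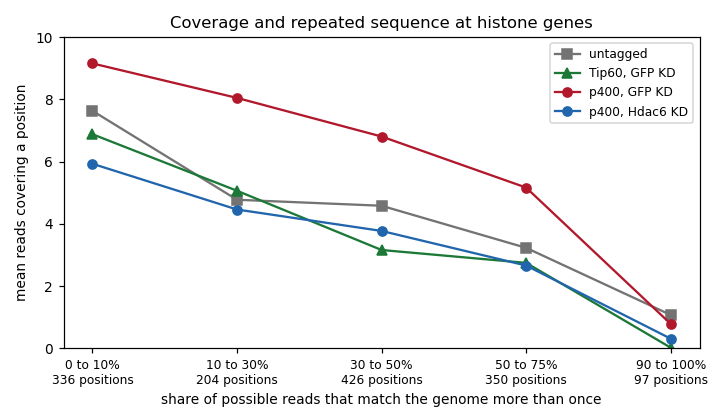
Mean number of reads covering a position around the TSS (at most 250 bp away) of the histone genes (y axis), by the share of possible 50-base reads that match the genome more than once (x axis, with the number of positions), in 4 libraries; the class of 75 to 90%, with 13 positions, is left out. In each of these 4 libraries coverage is lower in each class with more repeated reads, from 9.16 to 0.784 reads for p400 upon GFP KD.

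The emptiest rows were those of the repeated copies. Both rows of Hist1h4m, with 96.1% and 96.0% of possible reads repeated, held 0 and 5 p400 reads and 0 and 0 Tip60 reads upon GFP KD. The fully repeated row of Hist2h3c1 (100%) held 4 p400 and 0 Tip60 reads. At these rows few reads that match once exist, and low binding cannot be told apart from reads that were placed elsewhere or left out. The linker histone genes (median 8.3% repeated) and H4 genes (21.8%) had a smaller repeated share than the H2A and H2B genes (44.1% and 43.9%).

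Upon Hdac6 KD, p400 reads were lower at 61 of the 62 histone rows (98.4%), against 73.3% of all rows. The remaining row, at Hist1h4m, held 0 reads in both libraries. The summed reads went from 1323 upon GFP KD to 776 upon Hdac6 KD, a change of −52.7% after scaling to depth (95% interval −56.8 to −48.3%, exact, for counting error only). Over all RefSeq rows the summed reads changed by −31.4%. Upon GFP KD the median histone row held 21 reads against 20 over all rows, and upon Hdac6 KD it held 12 against 18. By the exact binomial test of single rows with Benjamini-Hochberg adjustment over all rows, 15 of the 62 rows (24.2%) fell, against 12.8% of all rows. In the window of 250 bp on either side 4 rows fell. With all histone rows scaled by the summed change of their flanks, as described further on, 1 did. None of the 62 rose at an adjusted or an unadjusted p under 0.05, against 0.291% and 1.46% of all rows. At least 2-fold lower were 34 rows (54.8%), against 21.9% of all rows.

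**Figure D2:**
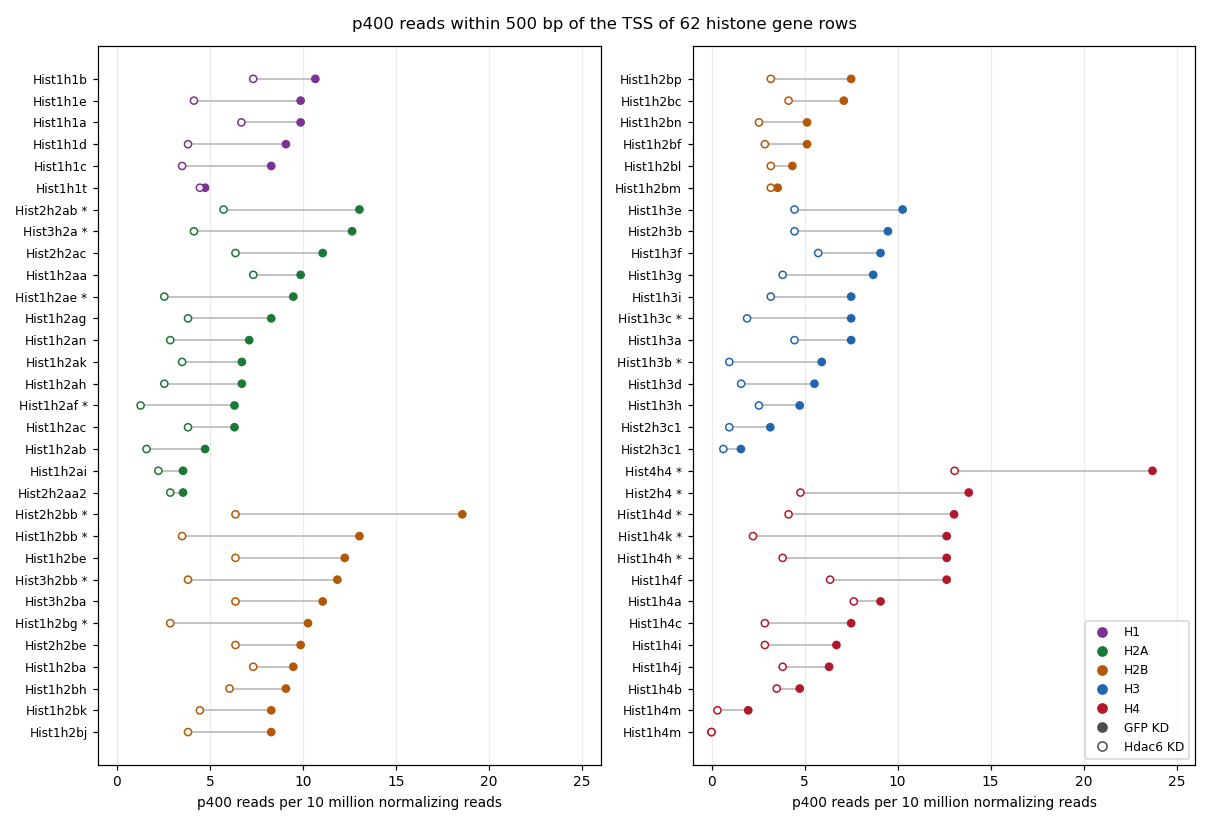
p400 reads within 500 bp of the TSS per 10000000 normalizing reads (x axis) at each of the 62 histone rows (y axis, by class), upon GFP KD (filled) and Hdac6 KD (open), 1 library each; an asterisk marks the 15 rows at an adjusted p under 0.05. The open point lies left of the filled one at 61 rows and at the same place at 1 row, which is empty in both.

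Among the genes for H4, the core histone that pairs with H3, 5 of 13 rows fell, against 12.8% of all rows. Hist1h4k went from 32 to 7 p400 reads, a change of −82.4% (95% interval −93.4 to −59.3%; exact binomial adjusted p = 0.000215). Hist1h4h went from 32 to 12 reads (−69.8%), Hist1h4d from 33 to 13 (−68.2%) and Hist2h4 from 35 to 15 (−65.4%), with adjusted p-values by the exact test of 0.00507, 0.00617 and 0.00917. Hist4h4, which stands alone on chromosome 6 and whose reads are 0% repeated, went from 60 to 41 reads (−44.9%; exact adjusted p = 0.0331). It was the histone row with the most p400 reads in both libraries.

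The genes for H3, which carries many of the marks that regulate transcription, had fewer p400 reads. Hist1h3b went from 15 to 3 reads (−83.9%, exact adjusted p = 0.0168) and Hist1h3c from 19 to 6 (−74.5%, exact adjusted p = 0.0231), and these were the 2 of 12 H3 rows that fell, a share near the 12.8% of all rows. These 2 and Hist1h2af, below, lie outside the rule for named genes and were named after their values were seen. Hist1h3f and Hist1h3g, the H3 rows with the most Tip60 reads, held 23 and 22 p400 reads upon GFP KD and 18 and 12 upon Hdac6 KD, and neither passed the test.

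Of the H2A genes 4 of 14 fell, and of the H2B genes 4 of 17, against 12.8% of all rows. In the pair Hist3h2bb/Hist3h2a the windows held 30 and 32 p400 reads upon GFP KD and 12 and 13 upon Hdac6 KD (−67.7% and −67.2%; exact adjusted p = 0.00942 and 0.00823). Hist1h2ae and Hist1h2bg, another pair, held 24 and 26 reads and then 8 and 9 (−73.1% and −72.1%; exact adjusted p = 0.0102 and 0.00921). These 4 calls come from 2 shared promoters. Hist2h2bb went from 47 to 20 reads (−65.7%, exact adjusted p = 0.00149) and Hist1h2bb from 33 to 11 (−73.1%, exact adjusted p = 0.00195). Hist1h2af went from 16 to 4 reads (exact adjusted p = 0.0261) and Hist2h2ab from 33 to 18 (exact adjusted p = 0.0389). Of the pair Hist1h2bh/Hist1h3f, with starts 613 bp apart, neither member fell, with 23 reads each upon GFP KD and 19 and 18 upon Hdac6 KD.

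The other rows of Hist2 and Hist3 did not pass the test. Hist2h2ac and Hist2h2be, a pair, went from 28 and 25 p400 reads to 20 and 20. Hist2h3b went from 24 to 14 reads and Hist3h2ba from 28 to 20. Hist2h2aa2, 77.1% repeated, held 9 reads in both libraries, and the second row of Hist2h3c1 held 8 and then 3.

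The linker histone H1 binds DNA where it enters and leaves the nucleosome. None of the 6 H1 rows passed the exact test at the adjusted p, against 12.8% of all rows that fell. All 6 were lower, against 73.3% of all rows, and their summed reads changed by −43.0% (95% interval −56.7 to −25.2%). Hist1h1b, Hist1h1a and Hist1h1d went from 27 to 23, from 25 to 21 and from 23 to 12 reads. The summed change of the other classes was −53.7% for H2A, −50.6% for H2B, −57.1% for H3 and −55.6% for H4, with intervals that overlap each other and that of H1. By cluster it was −52.2% for Hist1, −54.2% for Hist2, −59.7% for Hist3 and −44.9% for Hist4.

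The testis forms, which are made in male germ cells, had some of the smallest differences. Hist1h1t went from 12 to 14 p400 reads (−5.89% after scaling), Hist1h2aa from 25 to 23 (−25.8%) and Hist1h2ba from 24 to 23 (−22.7%). The latter pair shares reads. The summed change of the 3 was −20.7% (95% interval −45.4 to 15.2%), and that of the other 59 rows was −54.2% (−58.3 to −49.8%). The difference between them was not tested.

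Rows with few repeated reads had a difference of the same direction. At the 9 rows with under 5% of possible reads repeated, the change of summed p400 reads was −44.8% (95% interval −54.2 to −33.6%). At the 31 rows with 30 to 75% repeated the change was −56.2% (−61.9 to −49.7%). GC content, with which the ratio of the p400 libraries varied in windows far from a TSS, was also compared. The histone windows had a median GC content of 53.5% and all rows 53.0%. Other RefSeq rows with a GC content within the interquartile range of the histone rows (5109 rows) changed by −24.9%. Corrected for GC content, the log2 ratio of summed p400 reads at the histone rows was −1.19 in place of −1.08, and 16 rows fell in place of 15. Without the histone rows that were over 75% repeated it was −1.08, and 15 rows fell. How much of the p400 difference comes from repeated sequence or GC content was not tested.

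The lower p400 signal reached far beyond the promoter. Summed over both sides of the TSS, p400 reads at the histone rows changed by −52.8% within 250 bp, −48.5% between 500 and 1000 bp, −40.1% between 1000 and 1500 bp and −36.6% (95% interval −42.6 to −30.0%) between 1500 and 2000 bp. Over all RefSeq rows the same distances gave −34.2%, −18.0%, −8.75% and −3.01%. The flanks, from 1500 to 2000 bp, were lower at 50 of the 62 histone rows and at 52.4% of all rows. With only flank positions at least 1000 bp from any other listed start, the change was −32.5% at the histone rows and −1.42% over all RefSeq rows. Measured against its own flanks, the p400 signal at the histone promoters changed by −25.4%, and over all RefSeq rows by −29.2%. Against only the flank positions clear of other starts, the changes were −29.9% and −30.4%. In a scaling chosen after seeing the data, the summed flank change (−36.6%) was used as 1 factor for all 62 histone rows. Other rows were not scaled. By the exact test 1 histone row, Hist1h4k, then fell, in place of 15.

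**Figure D3:**
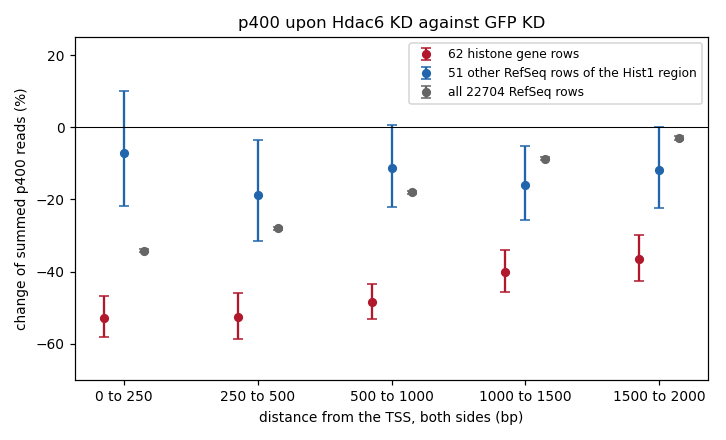
Change of summed p400 reads upon Hdac6 KD against GFP KD, scaled to depth (y axis, percent), by distance from the TSS on both sides (x axis); points are sums over the rows of 1 library against 1, and bars are exact 95% intervals for counting error. The histone rows lie lowest at each distance and still have −36.6% at 1500 to 2000 bp, where all RefSeq rows have −3.01%.

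Summed over their rows, other genes that lie among the Hist1 genes differed less. The Hist1 rows span chr13:21808012-24026331, and 51 other RefSeq rows start within this stretch, many of them of vomeronasal receptor genes (Vmn1r). Their summed p400 reads within 500 bp changed by −13.4% and their flanks by −12.0%, against −52.2% and −40.4% at the 49 Hist1 rows. Upon GFP KD the 51 rows held 529 p400 reads within 500 bp and 483 in the flanks, against 960 and 754 at the Hist1 rows. As a set they thus had little p400 signal above their flanks that could fall. Outside this stretch, RefSeq rows of chromosome 13 (778 rows) changed by −35.7% at the promoter and −6.94% in the flanks. No control ChIP for the p400 antibody was used here, and the cause of the flank difference was not tested.

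Tip60 was not above the untagged control at the histone genes. Their summed reads were 835 in Tip60-H3F ESCs upon GFP KD and 973 in untagged ESCs, a difference of −6.91% after scaling (95% interval −15.2 to 2.21%), while all rows together gave 17.1%. By the exact binomial test 0 of 62 rows had more Tip60 reads than the control, against 1.32% of all rows, and 0 had fewer, against 0.112%. At an unadjusted p under 0.05, 1 row had more and 4 had fewer, against 8.91% and 2.53% of all rows. The untagged control itself was high here, with a mean signal 1.32 times its mean over all rows, while Tip60 was 1.05 times its own. Tip60 reads were higher than untagged reads, scaled to depth, at 28 rows (45.2%) and lower at 33 (53.2%), against 58.3% and 39.9% of all rows.

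The rows with the most Tip60 reads were also high in the control. Hist2h4 held 39 Tip60 and 32 untagged reads, Hist4h4 37 and 33, Hist2h2bb 28 and 28, Hist2h2ab 24 and 22, Hist1h1d 23 and 20, and Hist1h1b and Hist1h1a 21 each against 32 and 28. In Hist3h2bb/Hist3h2a, the head-to-head pair with the most Tip60 reads, the windows held 17 and 19 Tip60 reads and 10 and 11 untagged reads, and in Hist1h2bh/Hist1h3f 13 and 20 against 7 and 12. None of these passed the exact test. At the low end, Hist1h2bl and Hist3h2ba held 6 Tip60 reads each and 16 and 15 untagged reads, and Hist1h1c, the lowest of the H1 genes, held 15 and 20. By class, the median Tip60 reads were 20.5 for H1, 12 for H2A, 13 for H2B, 13 for H3 and 10 for H4, and the untagged control had 21.5, 15.5, 15, 11.5 and 15 in the same order.

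**Figure D4:**
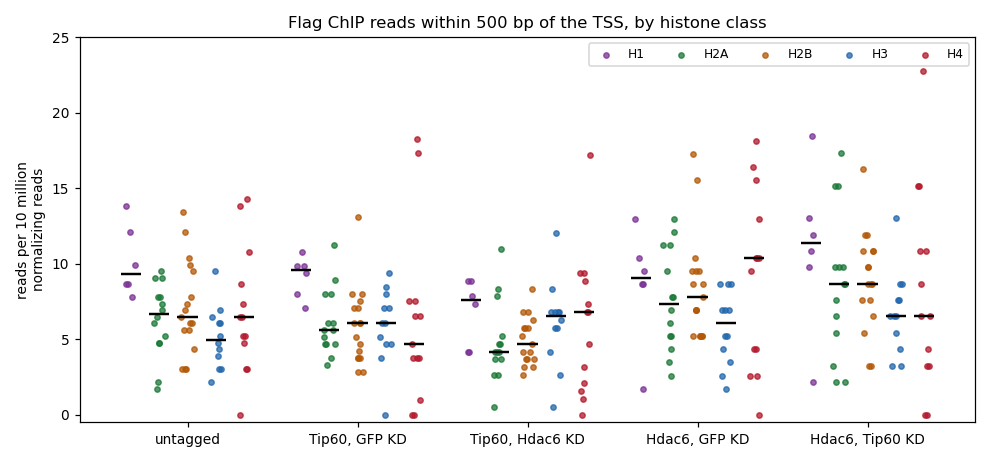
Flag ChIP reads within 500 bp of the TSS per 10000000 normalizing reads (y axis) at each histone row (points), by class (colours) and library (x axis), with the median of each class as a bar. The 6 H1 rows have the highest class median in the untagged control and in Tip60 upon GFP KD, and the Tip60 points cover the same range as the untagged ones except for 2 H4 rows, Hist2h4 and Hist4h4, above them.

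Upon Hdac6 KD, Tip60 reads at the histone genes went from 835 to 657, a change of −12.4% (95% interval −21.0 to −2.83%), against −15.2% over all rows. Pairs are counted in both rows in this sum, and over the 49 rows whose windows do not overlap the change was −9.22% (−19.1 to 1.88%), an interval that includes 0. Tip60 reads were lower at 42 of the 62 rows (67.7%) and higher at 19 (30.6%), against 60.7% and 37.4% of all rows. None of the 62 rows fell by the exact test with adjustment, against 0.452% of all rows, and none rose, against 0.0626%. At an unadjusted p under 0.05, 4 were lower and 1 was higher, against 9.77% and 3.08% of all rows. The 2 lowest p-values were those of Hist2h2bb, with 28 and 10 reads (−60.2%; exact adjusted p = 0.196), and Hist2h4, with 39 and 17 (−51.5%; exact adjusted p = 0.213). At least 2-fold lower were 10 rows (16.1%), against 20.1% of all rows. Hist4h4 held 37 and 33 reads. The sum over H2A rows changed by −21.5%, that over H1 rows by −24.8%, that over H3 rows by 3.20% and that over H4 rows by −2.88%. When corrected for the GC content of the windows, the summed change over all 62 rows was 0.01 on the log2 scale instead of −0.19. The correction had a like effect over all rows. The median log2 ratio of single rows went from −0.219 to 0.0264 over all rows and from −0.197 to 0.00131 at the histone rows.

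Hdac6 had a narrow maximum near the listed start of the histone genes. The mean signal, smoothed over 100 bp, reached 0.200 ppm at 60 bp upon GFP KD and 0.212 ppm at 20 bp upon Tip60 KD, while over all rows it reached 0.169 and 0.175 ppm at 100 bp. The listed TSS is an annotated start codon at 30 of the 62 rows, so distances there need not be those from the transcript start. How far this shifts the positions and windows given here was not tested. On the upstream side it was lower than over all rows. At the 38 rows outside head-to-head pairs, the mean signal upon GFP KD was 0.0529 ppm between −400 and −200 bp, against 0.123 ppm over all rows, and 0.188 ppm in the first 200 bp downstream, against 0.166 ppm. Summed signal from −100 to 300 bp was 2.65 times that from −600 to −200 bp at these rows upon GFP KD and 2.56 times upon Tip60 KD, against 1.37 and 1.39 times over all rows. In the untagged control the ratio at the same rows was 1.09, in Tip60 upon GFP KD 0.933 and in p400 upon GFP KD 1.21. At head-to-head pairs, where the upstream window of a gene lies over the neighbouring gene, the Hdac6 ratio was 1.01, and over all 62 rows it was 1.74.

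**Figure D5:**
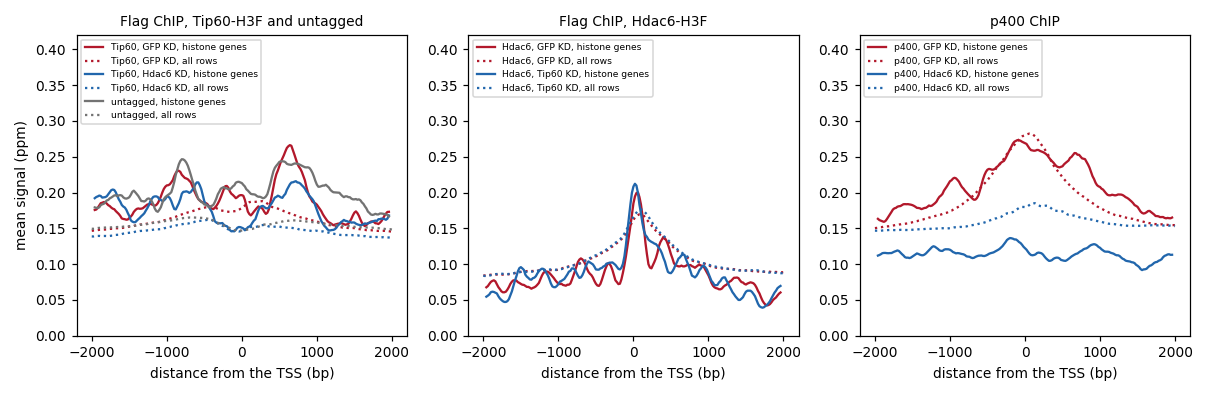
Mean signal (y axis, ppm) against distance from the listed TSS (x axis, bp) for the 62 histone rows (solid, smoothed over 100 bp) and all rows (dotted) in the Tip60 and untagged (left), Hdac6 (middle) and p400 (right) libraries. Hdac6 peaks sharply at 60 bp (GFP KD) and 20 bp (Tip60 KD) at the histone genes, and the solid p400 line upon Hdac6 KD stays below the dotted one across the whole 2000 bp on each side.

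By reads within 500 bp, the histone genes held 565 Hdac6 reads against 973 untagged reads, a difference of 16.0% after scaling (95% interval 4.40 to 28.8%), and all rows gave 84.0%. Over the 49 rows without overlap it was 12.6% (−0.181 to 26.9%), an interval that includes 0. The exact test placed 1 of 62 rows above the control, against 22.2% of all rows, and 0 below it, against 0.368%. At an unadjusted p under 0.05, 4 rows were above and 1 below, against 32.6% and 1.40% of all rows. The row above it was Hist1h4d, with 19 Hdac6 and 12 untagged reads (exact adjusted p = 0.013). Hist1h4k, with 15 and 11 reads, had an exact adjusted p of 0.0508. The testis form Hist1h1t held 2 Hdac6 reads and 18 untagged reads. In the flanks the histone rows had less Hdac6 than the control, with a difference of −28.6%, so the small excess in the window depends on its width. From −1000 to 1000 bp, the log2 ratio was −0.03 in place of 0.21, and with the GC correction it was −0.61. The same settings lowered the ratio over all rows. There the median log2 ratio of single rows was 0.58 from −1000 to 1000 bp and −0.01 with the GC correction, in place of 0.81. At the histone rows these medians were −0.06 and −0.57, in place of 0.17. Measured against their own flanks, a scaling chosen after seeing the data, the histone promoters had 62.4% more Hdac6 than the control. All RefSeq promoters had 70.1% more. Against flank positions at least 1000 bp from any other listed start, the values were 74.5% and 74.4%. With the summed flank difference of the histone rows (−28.6%) as 1 factor for all of them, 5 histone rows passed the exact test.

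Upon Tip60 KD, Hdac6 reads at the histone genes went from 565 to 487, a change of 8.24% after scaling (95% interval −4.31 to 22.4%), against 2.49% over all rows. By the exact test none of the 62 rows rose, against 0.00272% of all rows, and none fell, against 0.0% of all rows. At an unadjusted p under 0.05, 0 rose and 0 fell, against 2.15% and 1.35% of all rows. Reads were higher at 38 rows (61.3%) and lower at 23 (37.1%), against 51.0% and 46.6% of all rows. At least 2-fold lower were 4 rows (6.45%), against 9.79% of all rows. Hist1h4d held 19 and 14 reads and Hist4h4 18 and 21.

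For comparison, histone genes that are expressed outside S phase were taken as a list of 12, of which 11 were found in 12 rows. Their windows had a median GC content of 63.3%, against 53.5% for the replication-dependent genes, and in flanks over all rows the ratio of Hdac6 to untagged reads was 3.08 at 62.5 to 65% GC and 1.84 at 52.5 to 55% GC. The part of GC content in the values below was not tested, nor was the difference between the lists. Hdac6 was above the untagged control at 6 of the 12 rows by the exact test, against 22.2% of all rows. They were H3f3a (20 against 13 reads), H3f3b (22 against 17), H2afx, H2afy2 and both rows labelled H2afz. The rows labelled H2afz lie on chromosomes 3 and 11, and whether both are that gene was not checked. H2afz encodes H2A.Z, and H3f3a and H3f3b encode H3.3. Upon Hdac6 KD, p400 fell at 5 of the 12 rows, against 12.8% of all rows, and rose at 0, against 0.291%. At H3f3b it went from 46 to 28 reads (exact adjusted p = 0.0309), at H2afx from 49 to 26 (exact adjusted p = 0.00813) and at H3f3a from 25 to 24 (exact adjusted p = 0.637). The summed change was −42.6% (95% interval −51.4 to −32.4%). Tip60 passed the exact test at 0 of the 12 rows, against the untagged control as upon Hdac6 KD.

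The genes that control histone gene transcription and mRNA processing were a list of 17, of which 16 were found in 24 rows. Hdac6 was above the untagged control at 6 of the 24 rows, a share near the 22.2% of all rows. They were those of Slbp, the stem-loop binding protein (25 against 18 reads, exact adjusted p = 0.00844), Ccne1, Cpsf3 and Srrt, and 2 overlapping rows of Ccne2. Upon Hdac6 KD, p400 fell at 6 of the 24 rows, against 12.8% of all rows, and rose at 0, and 2 of the 6 are rows of Srrt that share reads. Slbp had the lowest p-value of the list, going from 57 to 23 reads (exact adjusted p = 0.000218). Cpsf2, a subunit of the cleavage complex, went from 47 to 18 (exact adjusted p = 0.000515), Eri1 from 26 to 11, and 1 row of Ccne2 also passed. Npat, the coactivator of histone genes in S phase, held 26 and 31 reads and did not pass (exact adjusted p = 0.984). The summed change was −38.0% (95% interval −44.8 to −30.4%).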

How the data were processed

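The 7 deposited files hold coverage signal (ppm) that the authors made from 50-base single-end reads processed with CASAVA 1.8.2 and Bowtie, per the labels and the methods. The reads were collapsed by sequence with their number kept, aligned to mm9 allowing 1 mismatch, with 1 match drawn at random for reads that had more, then lengthened to 150 bp and cleared of simple repeats; signal is given at 201 positions per row. The Bowtie version, the normalizing count and the TSS list are not given in the sources used here. A read that stands alone covers 148 to 149 bp in the Hdac6 data and 299 bp in all other libraries.

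In each library 100% of the values above 0 lay within 0.01 steps of a whole multiple of the smallest value, the step, which was taken as the value of 1 read. Reads per row were taken as the signal summed over the window, in steps, over the length that 1 lone read covers, rounded. Pairs of libraries were compared row by row by an exact conditional binomial test given their normalizing reads, with Benjamini-Hochberg adjustment over all rows, and called at an adjusted p under 0.05. Sums of reads have exact 95% intervals. Tests and intervals cover counting error only, and reads from 1 PCR are not independent molecules. Medians of log2 ratios use a pseudocount of 0.5 reads. The listed TSS is the start of an annotated transcript (GENCODE M1) at 30 of the 62 rows and an annotated start codon at 30. Repeated reads were counted by matching each 50-base stretch of the windows to the mm9 genome.

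On simulated reads with 200 rows lowered 4-fold, the test called 24.5% of them at the p400 depth (22704 rows). At the Tip60 depth (36733 rows) it called 3.5%, and of rows lowered 2-fold it called 0% at either depth. All other simulated rows were unchanged. In the p400 data 12.8% of all rows fell, which makes the adjustment less strict, so these shares do not carry over to that comparison. Python 3.11.15, numpy 2.4.6, scipy 1.17.1, statsmodels, numba 0.67.0 and matplotlib 3.10.9 were used. The members and lists were chosen with earlier results of these data known. Named genes are the 10 called members with the lowest p in each direction, for each class the 2 members with the most and the 1 with the fewest Tip60 reads, the testis forms, the members of Hist2, Hist3 and Hist4, the 2 head-to-head pairs with the most Tip60 reads, and, of the other lists, the called genes and 5 fixed ones. Alternatives were other windows, scalings and thresholds, and fewer rows.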

Additional observations from a re-analysis of the deposited data

How the results depend on the processing

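The lower p400 reads upon Hdac6 KD kept their direction under the 9 alternatives that give a summed value. The log2 ratio of summed reads was between −1.19 and −1.02 except with own flank scaling (−0.42). Own flank scaling applies the summed flank change of the histone rows to all of them as 1 factor and leaves other rows unscaled. The number of histone rows called lower, 15, was 4 in the window of 250 bp on either side (Hist1h4k, Hist1h4h, Hist1h2bb and Hist2h2bb), 31 in the window of 1000 bp, 9 at an adjusted p under 0.01 and 1 with own flank scaling, an alternative chosen after seeing the data like that without repeated rows. For Hdac6 against the untagged control, the log2 ratio of summed reads was 0.21. It was −0.027 in the window of 1000 bp, −0.0143 with equal flanks over all rows, −0.61 with the GC correction and 0.70 with own flank scaling. The median log2 ratio over all rows, 0.81, was 0.58 in the window of 1000 bp, 0.58 with equal flanks and −0.01 with the GC correction. The 1 row called higher became 2 in the window of 250 bp, with at least 10 reads and with 1 row per gene (Hist1h4k beside Hist1h4d), 5 with own flank scaling (Hist3h2a, Hist1h3a and Hist2h2be as well) and 0 in the window of 1000 bp, at an adjusted p under 0.01, with equal flanks and with the GC correction. For Tip60 upon Hdac6 KD the log2 ratio of −0.19 was 0.0113 with the GC correction, and 1 row, Hist2h4, was called lower in the window of 1000 bp. The median log2 ratio over all rows, −0.219, was 0.0264 with the same correction. The ratio of Hdac6 signal downstream to upstream, 1.74 upon GFP KD and 1.65 upon Tip60 KD, was 1.33 and 1.19 over the whole 1000 bp on either side and 2.65 and 2.56 without head-to-head pairs, the latter added after seeing the data. With the untagged signal subtracted it was 16.7 upon Tip60 KD, and upon GFP KD, as for both Tip60 libraries, no ratio could be formed since the control exceeded the signal. The causes were not tested. The other alternatives left the rest of these results within 1.5 times the reported count or within their counting interval. No paired analysis was possible because each condition has 1 library. With 8 to 20 reads in a typical row, 0% of simulated rows lowered 2-fold were called when few rows changed. For p400 upon Hdac6 KD, where 12.8% of all rows fell, the share that can be detected was not simulated.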

Other observations

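Among the other genes that start between the Hist1 genes on chromosome 13, those with the most p400 reads were named after their values were seen. Zfp184, a zinc finger gene, held 40 p400 reads in the GFP KD library and 32 in the Hdac6 KD library, Zfp322a held 38 and 21, and Abt1 held 31 and 22. Most vomeronasal receptor genes of the stretch held fewer than 15 reads in both libraries. The gene Hfe, which lies between Hist1h4c and Hist1h1c, held 10 and 19 reads.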
